A study of Homo sapiens with 16 samples.

Results

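Interferon-stimulated genes are the genes that a cell switches on when an interferon, a secreted antiviral signal, binds its receptor. The kinases at the receptor activate STAT proteins, which join IRF9 and bind a promoter element called ISRE, and interferon gamma acts through a related element called GAS. NF-kB, the transcription factor that the kinase IKKβ releases from its inhibitor, takes part in switching on the interferon beta gene and binds its own kB element. In B cells, Epstein-Barr virus (EBV) can hold both NF-kB and interferon-induced genes at a raised level.

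The set holds 39 genes chosen by name. Each was matched through the array's platform table to probe sets that name a single gene, and the probe set with the highest mean signal stood for the gene. A probe set was found for 38 of the 39, out of 19775 genes with one on the array, and all 38 passed the filter on low signal that left 12305 genes for testing. STAT2, a partner of IRF9 in the factor that binds ISRE, has no probe set named for it alone in the table used and is not reported here.

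Mantle cell lymphoma is a B-cell cancer. Of the 8 established human B-cell lines profiled, JVM-2 and JVM-13 are set apart from the other 6, which are lymphoma lines. Each line was profiled on 1 array after 20 hours with 5 µM AFN700, an IKKβ inhibitor. It was also profiled on 1 array after 20 hours in 0.025% DMSO, the solvent. By the labels 2 lines, REC-1 and SP49, are sensitive to STN/ibrutinib, and the other 6 are insensitive: JVM-13, JVM-2, GRANTA-519, HBL-2, Maver-1 and Z-138. GRANTA-519, JVM-2 and JVM-13 are known to carry EBV, which is background knowledge about the lines and is not in the labels. All 3 are insensitive, and what else the 3 lines share cannot be told apart from the virus. That JVM-2 and JVM-13 are set apart from the lymphoma lines was not taken into account in the tests by EBV status. DMEM was the medium of GRANTA-519, while RPMI was that of the rest. Nothing in the labels says that a line was treated in more than 1 culture, so the line is the only replicate. RNA was taken from all cells of a line, so that fewer expressing cells and less RNA per cell cannot be told apart.

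The values are linear intensities of probe sets, scaled by the authors to the same trimmed mean on every array. They were taken to log2(intensity + 3.3), and every log2 difference below is on that scale, which understates changes of dim genes. No detection calls were used, so low values may be background. The B-cell markers MS4A1, CD79A, CD79B, PAX5 and CD22 were above the 60th percentile of the array on all 16 arrays, and no marker of the other cell types listed was. On at least 1 array, 3 of 4 markers of T cells, 2 of 4 of myeloid cells, 2 of 4 of plasmacytoid dendritic cells and 3 of 4 of fibroblasts and epithelium were above it. The summed intensity of the 4 plasmacytoid dendritic cell markers was between 22.7 and 2458.5 on the AFN700 arrays and between 32.3 and 2403.8 on the DMSO arrays, most of it from LILRA4 in REC-1 and SP49, while the defining marker CLEC4C was above the 60th percentile on none. Their part in the results was not tested. The DMSO array of JVM-13 stands apart. Its median log2 intensity over all genes tested was 7.25, against 7.82 to 8.01 on the other 7 DMSO arrays, and its correlation with the AFN700 array of its own line was 0.924, against 0.964 to 0.990 in the other lines. The treated array of JVM-13 carries AFN700 in its title but a different compound number in its other labels. The actin 3′ to 5′ signal ratio, which is high where RNA is degraded, was 16.7 with AFN700 and 1.90 with DMSO in HBL-2, and 18.8 and 10.3 in Maver-1. In the other 6 lines it was between 2.09 and 6.39 with AFN700 and between 2.01 and 5.06 with DMSO.

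Promoter sequence of 300 bases (250 before to 50 after the gene's start, RefSeq, GRCh38.p14) was at hand for 30 of the 39 genes. The ISRE letters GAAANNGAA were looked for on both strands, as were the GAS letters TTCNNNGAA and the kB letters GGGANTTTC. An ISRE match was present in 20 of the 30 promoters (66.7%), against 8.29% of 27305 promoters in the table. A GAS match was present in 8 (26.7%, against 7.88%) and a kB match in 4 (13.3%, against 1.30%), those of OAS3, IFIH1, RIGI and DDX60. All 3 IFIT promoters at hand held an ISRE match, as did 8 of 9 promoters of antiviral effectors and none of the 3 of transcription factors. A match is only those letters in the window. Those of 5 genes are shown, with every match of the 3 motifs in capitals and the letters running 5′ to 3′ on the gene's own strand. GBP1 and IFIH1 were higher in every EBV-positive line than in every other line, IFI44L had one of the widest ranges between lines, IFIT3 stands for the IFIT genes, and IRF1 was among the genes that differed least.
GBP1, chr1:89065159-89065458, minus strand: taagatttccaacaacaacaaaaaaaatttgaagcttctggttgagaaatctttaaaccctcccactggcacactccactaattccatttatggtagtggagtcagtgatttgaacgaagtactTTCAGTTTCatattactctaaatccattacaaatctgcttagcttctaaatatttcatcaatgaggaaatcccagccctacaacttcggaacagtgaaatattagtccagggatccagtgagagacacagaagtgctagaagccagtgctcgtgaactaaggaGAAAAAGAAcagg
IFIH1, chr2:162318635-162318934, minus strand: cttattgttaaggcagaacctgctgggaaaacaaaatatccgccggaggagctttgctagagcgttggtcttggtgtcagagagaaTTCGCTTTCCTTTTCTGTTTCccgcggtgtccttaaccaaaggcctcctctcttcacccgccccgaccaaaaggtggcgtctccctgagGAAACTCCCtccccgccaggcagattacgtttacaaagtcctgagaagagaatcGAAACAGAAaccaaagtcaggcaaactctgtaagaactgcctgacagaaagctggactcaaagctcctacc
IFI44L, chr1:78620198-78620497, plus strand: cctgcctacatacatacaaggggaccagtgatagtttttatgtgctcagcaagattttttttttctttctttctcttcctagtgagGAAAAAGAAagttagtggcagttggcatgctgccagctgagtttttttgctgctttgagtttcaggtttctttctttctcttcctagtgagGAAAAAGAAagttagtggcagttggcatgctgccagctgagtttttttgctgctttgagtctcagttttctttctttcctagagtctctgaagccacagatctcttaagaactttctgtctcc
IFIT3, chr10:89327747-89328046, plus strand: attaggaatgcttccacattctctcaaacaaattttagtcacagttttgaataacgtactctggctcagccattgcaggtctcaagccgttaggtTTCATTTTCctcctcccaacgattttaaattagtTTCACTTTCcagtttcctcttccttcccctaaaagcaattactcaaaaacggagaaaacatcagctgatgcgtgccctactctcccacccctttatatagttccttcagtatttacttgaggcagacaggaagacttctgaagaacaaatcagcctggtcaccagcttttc
IRF1, chr5:132490724-132491023, minus strand: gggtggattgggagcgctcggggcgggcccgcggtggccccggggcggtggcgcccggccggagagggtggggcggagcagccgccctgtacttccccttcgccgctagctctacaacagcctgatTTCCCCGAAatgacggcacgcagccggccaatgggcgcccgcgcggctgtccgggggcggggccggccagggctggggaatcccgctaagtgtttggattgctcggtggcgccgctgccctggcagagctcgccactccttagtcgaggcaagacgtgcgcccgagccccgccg
The GBP1 promoter holds 2 ISRE matches, 1 of them after the start of the gene. The IFIH1 promoter holds 4 ISRE matches, 3 of which run into each other, and 1 kB match. The IFI44L promoter holds the same ISRE letters at 2 places, and the IFIT3 promoter holds 2 ISRE matches on the other strand. IRF1 has no ISRE match and 1 GAS match in this window.

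Before any drug the lines differed widely in these genes. Over the 8 DMSO arrays the lowest and highest log2 level of a member lay 4.56 apart at the median of the 38, against 2.10 at the median of the 12305 genes tested, and without JVM-13 the values were 4.56 and 1.61. A range of at least 5 log2 units was seen in 13 of the 38 and in 1393 of the 12305. JVM-2 was the highest line for 17 members and SP49 for 11, and Z-138 was the lowest for 14. The median DMSO intensity of the 38 was 584.35 in JVM-2, 454.3 in SP49, 199.1 in JVM-13, 179.7 in Maver-1, 163.5 in HBL-2, 133.55 in GRANTA-519, 55.4 in Z-138 and 39.45 in REC-1. Thus an EBV-positive insensitive line and a sensitive line not known to carry the virus were at the top, and the other sensitive line was at the bottom. In REC-1, 16 of the 38 members were at or below the array's 60th percentile under DMSO, and in Z-138 18 were, against 2 in SP49 and 1 in JVM-2. The matching shares over all genes tested are not given here. Over all genes tested the median DMSO intensity was 148.7 in JVM-13 and between 221.9 (HBL-2) and 254.1 (Maver-1) in the rest.

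**Figure D1:**
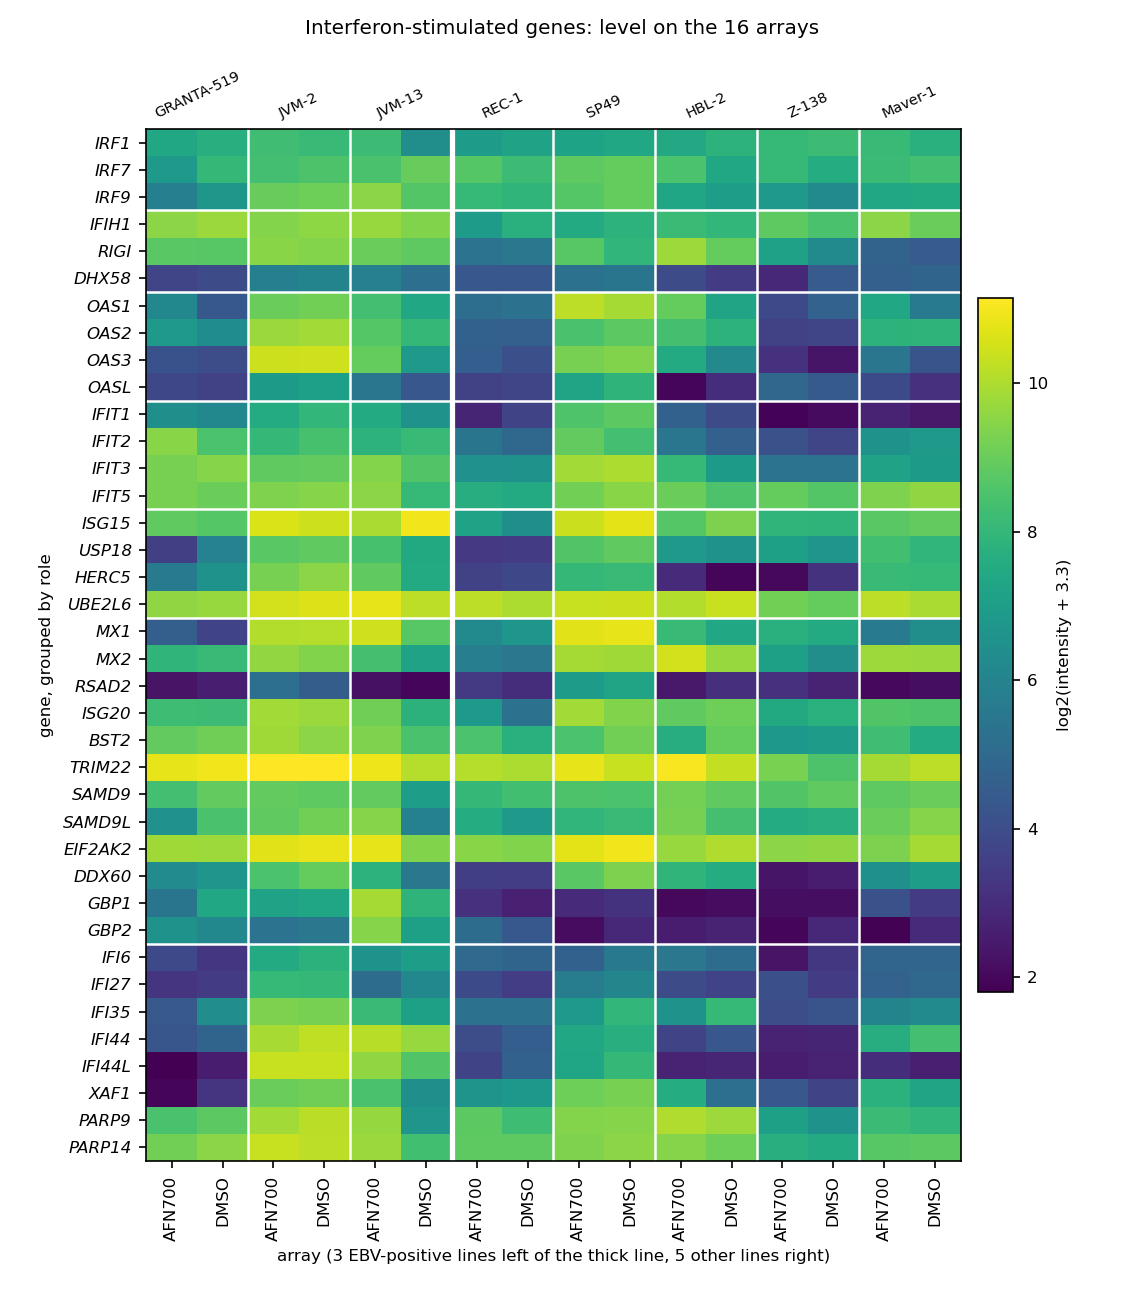
Level of the 38 interferon-stimulated genes, as log2(intensity + 3.3) in colour, on the 16 arrays. Rows are genes grouped by role and columns are arrays, AFN700 left of DMSO in each line. JVM-2 and SP49 are bright over most rows, REC-1 and Z-138 are dark over many, and the 2 columns of a line mostly look alike.

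The members were correlated across lines. The median correlation between pairs of members over the 8 DMSO arrays was 0.509 (703 pairs, 88.8% of them positive), against 0.028 over all pairs of the 12305 genes. Without JVM-13 the members' median was 0.564. These correlations rest on 8 arrays that all the genes share. OAS3, OAS2 and IFI27 followed the mean of the other members most closely (r = 0.95, 0.91 and 0.91), while SAMD9 (r = -0.17) and IRF1 (r = -0.14) did not follow it.

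The transcription factors had log2 ranges over the DMSO arrays of 1.57 to 2.82, below the members' median. IRF1, which interferon gamma induces, had DMSO intensities between 83 in JVM-13 and 294.2 in Z-138, with a median of 206.85. IRF7, the factor that amplifies interferon alpha production, was between 165.4 in HBL-2 and 497.2 in JVM-13, with a median of 309.2. IRF9, the DNA-binding partner of the STAT proteins, was between 73.6 in Z-138 and 539.2 in JVM-2, with a median of 207.35. All 3 were above the 60th percentile on all 16 arrays.

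Of the sensors of viral RNA, RIGI differed most between lines. IFIH1 encodes MDA5, which binds long double-stranded RNA, and its DMSO intensity was between 208.2 in REC-1 and 859.7 in GRANTA-519. RIGI encodes the sensor of short RNA with a triphosphate end, and it was between 19 in Maver-1 and 683.2 in JVM-2. DHX58 encodes LGP2, a relative that modulates both, and it was between 7.4 in HBL-2 and 61.6 in JVM-2. The RIGI value depends on the probe set: its other 2 probe sets correlated with the chosen one at 0.14 and 0.30 over the 16 arrays. Of the 20 other probe sets of members with a mean intensity over 20, 17 correlated with the chosen one above 0.7.

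The OAS enzymes make the 2-5A messenger that activates RNase L, and OASL is their catalytically inactive relative. OAS3 had the widest range of the 38 members, with DMSO intensities of 1.8 in Z-138, 12.8 in GRANTA-519, 13.6 in REC-1, 15.4 in Maver-1, 70.6 in HBL-2, 113.6 in JVM-13, 661.4 in SP49 and 1416.3 in JVM-2. JVM-2 and SP49 stood well above the other 6 lines, and 4 lines were near the bottom of the scale. OAS1 was highest in SP49 (935.3) and lowest in GRANTA-519 (17.5), OAS2 was highest in JVM-2 (913.2) and lowest in Z-138 (10.2), and OASL was highest in SP49 (230.6) and lowest in HBL-2 (4.9). The median DMSO intensity of the 4 genes was 738.6 in JVM-2 and 553.4 in SP49, against 14.35 to 138.55 in the other 6 lines.

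The IFIT proteins bind viral RNA that lacks a host cap. Their order of lines was different from that of the OAS genes. IFIT1 was at 442.1 in SP49, 253 in JVM-2, 93.8 in JVM-13, 67.7 in GRANTA-519, 12.2 in HBL-2, 9.9 in REC-1, 2.1 in Maver-1 and 0.9 in Z-138. IFIT2 was at 354.7 in GRANTA-519, 338.9 in JVM-2, 328 in SP49 and 267.7 in JVM-13, against 10.1 to 109.1 in the other 4 lines. IFIT3 was highest in SP49 (1027) and next in GRANTA-519 (690), with 37.5 in Z-138 at the bottom. For these 3 genes, SP49 and the EBV-positive lines were above Maver-1, HBL-2, REC-1 and Z-138. IFIT5 differed from them, with 771.5 in Maver-1 at the top and 177.9 in REC-1 at the bottom.

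GRANTA-519 stood at both ends of the order. It was the highest line for IFIT2 and IFIH1, yet it was the lowest line for OAS1, MX1, IFI6, IFI27, IFI44L and XAF1. MX1, a GTPase that blocks influenza and other viruses, was at 9.5 in GRANTA-519 under DMSO, against 82.9 to 1759.5 in the other 7 lines. IFI44L, a widely used marker of interferon exposure, was at 2.5 in GRANTA-519, 2.9 in Maver-1, 3.2 in Z-138, 3.8 in HBL-2, 22.7 in REC-1, 259.8 in SP49, 385.2 in JVM-13 and 1327.6 in JVM-2. XAF1, which antagonises an inhibitor of apoptosis, was at 6.2 in GRANTA-519 and at most 598.7, in SP49. High and low members thus stood side by side in this line.

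The ISG15 group attaches the ubiquitin-like ISG15 protein to others: UBE2L6 is the conjugating enzyme, HERC5 the ligase and USP18 removes ISG15 and also damps the receptor. ISG15 itself was between 85.1 in REC-1 and 1954.1 in JVM-13 under DMSO, with a median of 549.1. HERC5 was between 0.6 in HBL-2 and 728.9 in JVM-2, and USP18 between 7.8 in REC-1 and 463.2 in SP49. UBE2L6 varied far less, between 483.7 in Z-138 and 1624.5 in JVM-2.

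The remaining effectors included genes that differed little and genes that differed greatly. EIF2AK2, the kinase PKR that halts translation on double-stranded RNA, lay between 657.7 and 1961.6, and SAMD9, a restriction factor of poxviruses, between 128.5 and 507.6. SAMD9L, its paralog, lay between 57.5 in JVM-13 and 699.4 in Maver-1. TRIM22 and BST2, which encodes the tetherin that holds budding virus at the membrane, had log2 ranges of 2.59 and 2.54. MX2, which blocks entry of HIV into the nucleus, was between 41.7 in REC-1 and 906.8 in SP49, and ISG20, an RNA exonuclease, between 37.2 in REC-1 and 852.6 in JVM-2. DDX60, a helicase that aids RNA sensing, was between 2.4 in Z-138 and 626.8 in SP49. RSAD2 encodes viperin, which makes a chain-terminating nucleotide. It was near the bottom of the scale in most lines, with 148.2 in SP49, 20.3 in JVM-2 and at most 5.1 in the other 6. IFI6 was between 6.5 in GRANTA-519 and 222.4 in JVM-2, and IFI27 between 7.4 in GRANTA-519 and 255.6 in JVM-2. IFI44 ranged between 3.5 in Z-138 and 1219.6 in JVM-2, IFI35 between 15.7 and 600.3, and PARP9 and PARP14 between 93.3 and 1152.8 and between 178.3 and 1200.

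Between EBV-positive and other lines under DMSO, GBP1 was the 1 member that differed past the threshold. GBP1 is a guanylate-binding GTPase, a class that interferon gamma induces strongly and that attacks the membranes of intracellular pathogens. Its DMSO intensity was 162.4 in GRANTA-519, 152.3 in JVM-2 and 232.5 in JVM-13, against 7.7 in Maver-1, 5.7 in SP49, 3 in REC-1, 1.1 in Z-138 and 1 in HBL-2. The 2 groups do not overlap, and all 5 other lines were below the 60th percentile of their array. GBP1 thus passed the filter on low signal only through the EBV-positive arrays, and its difference is one against values that may be background. The mean was 182 ± 43.7 in EBV-positive lines (SD, n = 3) and 3.70 ± 2.94 in the others (SD, n = 5). The log2 difference was 4.81 ± 0.54 (SE), with an adjusted p = 0.00433 in limma. GBP1 was higher in 3 of 3 EBV-positive lines than in any other line. Without JVM-13 the difference was 4.62 (adjusted p = 0.0255), and among insensitive lines alone, 3 against 3, it was 4.94 (adjusted p = 0.0166). Without both JVM-13 and HBL-2 it was 4.47 and missed the threshold (adjusted p = 0.0742). The 2 other GBP1 probe sets with signal gave means of 97.5 against 3.18 and of 88.0 against 2.58.

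GBP1 was thus 1 of 38 members called, and 0.837% of the 12305 genes were called in this comparison, 0.553% of them as higher in EBV-positive lines. GBP2, its paralog, missed the threshold: it was at 69.2, 44 and 136.8 in GRANTA-519, JVM-2 and JVM-13, against 17.7 in REC-1 and 3.4 to 4.3 in the other 4 lines, a log2 difference of 3.14 ± 0.61 (adjusted p = 0.0540). IFIH1 was at 859.7, 750.4 and 655.5 in the 3 EBV-positive lines, against 531.5 in Maver-1 and 208.2 to 346.3 in the other 4 (1.34 ± 0.37, adjusted p = 0.164). GBP1, GBP2 and IFIH1 were the 3 of 38 members whose EBV-positive lines all lay above all others, where 4.85% of all genes tested did so. No member lay wholly lower, and 4.44% of all genes did. Without JVM-13 the count was 5 of 38, with IFIT2 and TRIM22 added, and the share of all genes was 8.49%.

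**Figure D2:**
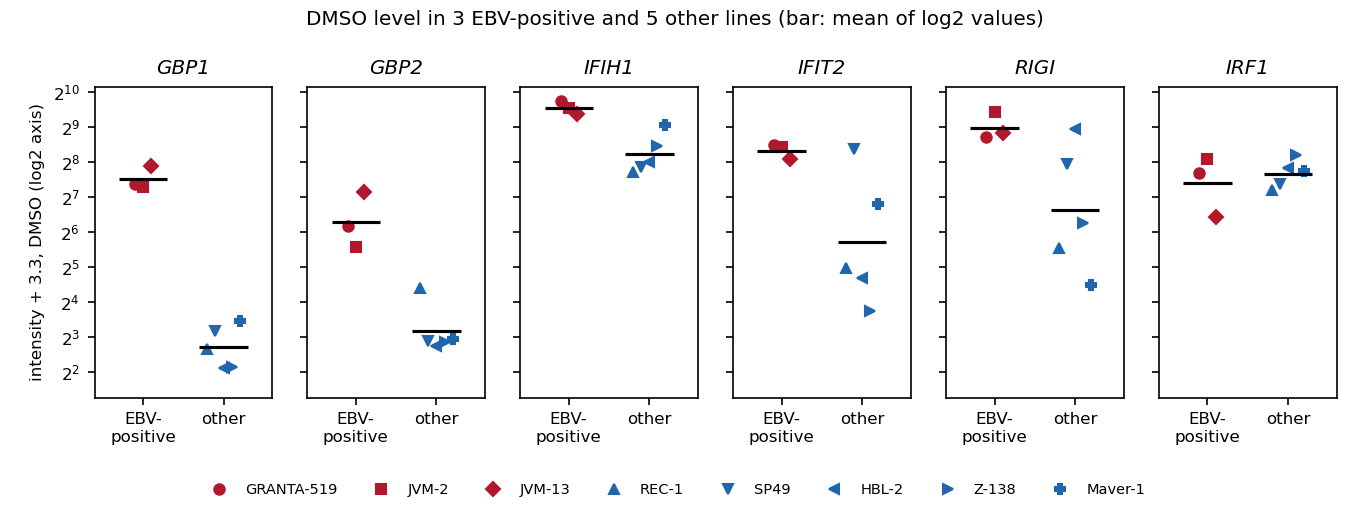
DMSO intensity plus 3.3, on a log2 axis, of 6 interferon-stimulated genes in the 3 EBV-positive lines (left in each panel) and the 5 other lines. Each point is 1 array and the bar is the mean of log2 values. GBP1, GBP2 and IFIH1 do not overlap between the groups, IFIT2 and RIGI overlap through SP49 and HBL-2, and IRF1 overlaps widely.

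The other members overlapped between the groups. IFIT2 averaged 320 ± 46.3 in EBV-positive lines (n = 3) and 99.5 ± 134 in the others (n = 5), a log2 difference of 2.61 ± 0.94 (adjusted p = 0.261). RIGI had a log2 difference of 2.36 ± 0.91 (adjusted p = 0.298) with the probe set used, but -0.09 and 0.01 with its other 2. At an unadjusted p under 0.05 there were 5 members, GBP1, GBP2, IFIH1, IFIT2 and RIGI, against 14% of all genes tested. The difference was positive in 32 of the 38 and negative in 6, with a median of 0.78, against -0.10 over all genes. IFI44L (2.99, adjusted p = 0.471), HERC5 (2.84, adjusted p = 0.421), IFIT1 (2.72, adjusted p = 0.404) and IFI44 (2.72, adjusted p = 0.451) had large differences that did not pass, and in each at least 1 of the other lines was above GRANTA-519. MX1 (-0.26 ± 1.42) and MX2 (0.00 ± 1.09) had none that stood out of their spread, and without JVM-13 the values were -0.87 and 0.53.

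Of 71 other genes of the interferon pathway, 62 were tested and 1 passed, GBP4, another guanylate-binding gene. Probes of such paralogs can bind each other's RNA, which was not tested. GBP4 was at 145.8, 518.9 and 113.8 in GRANTA-519, JVM-2 and JVM-13, against 0.2 to 6.1 in the other 5 lines (5.30 ± 0.64, adjusted p = 0.00673). GBP4 too was above the 60th percentile only on the 6 arrays of EBV-positive lines, so it passed the filter through them alone, and the size of its difference rests on values that may be background. Without both JVM-13 and HBL-2 GBP4 missed the threshold (5.92, adjusted p = 0.0571). GBP5 had a log2 difference of 2.26 ± 0.69 (adjusted p = 0.192) and was at 16.9 in GRANTA-519, below REC-1 at 19.2. IRF4, an interferon regulatory factor of B and plasma cells that is itself a known NF-kB target, had a difference of 1.14 ± 0.34 (adjusted p = 0.183). JAK1, a kinase at the interferon receptor, had one of -1.53 ± 0.46 (adjusted p = 0.189). IFNLR1, a chain of the receptor for interferon lambda, was at 10.4 in JVM-2 and 8.3 in JVM-13 but 697 in GRANTA-519, against 268.8 to 1499.6 in the other lines. The receptor chains IFNAR1 and IFNAR2 had differences of -0.77 ± 0.50 and -0.09 ± 0.39, which were -0.30 and 0.08 without JVM-13. IFNB1, the interferon beta gene, was between 0.1 and 4.7 on the AFN700 arrays and between 0.2 and 5.2 on the DMSO arrays, and it, IFNA1, IFNA2, IFNL1 and IFNK were above the 60th percentile on no array. IFNG, interferon gamma, was above it on 2 arrays only. It was at 3.5, 35.7 and 22 under DMSO in GRANTA-519, JVM-2 and JVM-13, against 0.3 to 2.2 in the other 5 lines.

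No member passed the test by sensitivity. Between sensitive and insensitive lines under DMSO 0 of 38 members passed, where 0.00813% of all genes (1 gene) did, and 1 member, IFIH1, had an unadjusted p under 0.05, where 5.7% of all genes did. The sensitive lines had IFIH1 at 208.2 (REC-1) and 228.1 (SP49), against 253.1 to 859.7 in insensitive lines (-1.24 ± 0.50, adjusted p = 0.861). The median difference of the 38 was -0.03, against 0.07 over all genes. The median turned on which sensitive line was kept: without REC-1 the median was 1.12, and without SP49 it was -1.09. The ISG15 intensities were 85.1 for REC-1 and 1754.1 for SP49, with all but 1 of the insensitive lines between. For XAF1 and MX1, SP49 was the highest of the 8 lines (598.7 and 1759.5), but REC-1 was not the lowest: at 106.6 its XAF1 was above 4 insensitive lines, and at 102.2 its MX1 was above GRANTA-519 (9.5) and Maver-1 (82.9). From the pathway list 0 of 62 passed, with STING1, the adaptor of DNA sensing, having the smallest p (-3.49 ± 0.83, adjusted p = 0.505), and 7 had an unadjusted p under 0.05.

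No member passed the test of AFN700 against DMSO. Over the 8 lines 0 of 38 passed in limma with the line as a block, as did 0% of the 12305 genes, and 5 members had an unadjusted p under 0.05, where 8.18% of all genes did. The 5 all had a positive difference. OAS3 had the smallest p, with a log2 difference of 0.73 ± 0.24 (adjusted p = 0.510) and a positive one in 6 of 8 lines. Its AFN700 intensities were between 5.4 and 1369.6 with a median of 109.45, against DMSO intensities between 1.8 and 1416.3 with a median of 43. OAS1 had 0.68 ± 0.30 (5 of 8 lines), MX2 0.39 ± 0.17 (7 of 8), RIGI 0.37 ± 0.16 (7 of 8) and TRIM22 0.30 ± 0.14 (6 of 8), all with an adjusted p of 0.597 or more. Without JVM-13 these differences were 0.54 for OAS3, 0.64 for OAS1, 0.27 for MX2, 0.39 for RIGI and 0.23 for TRIM22, and none passed. IFI44 leaned the other way, at -0.33 ± 0.17 and lower in 7 of 8 lines (adjusted p = 0.630). The median difference of the 38 was 0.07, against 0.06 over all genes, with 27 positive and 11 negative. Without JVM-13 the members' median was -0.03.

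A pair of direct NF-kB targets was set beside the members. NFKBIA, which encodes the inhibitor IκBα, was lower by more than 1 log2 unit in REC-1 (-1.31), SP49 (-1.63), HBL-2 (-1.24) and GRANTA-519 (-1.28). Its difference was -0.92 in JVM-2 and 1.47 in JVM-13. TNFAIP3, which encodes the feedback enzyme A20, had a difference of -0.90 ± 0.28 over 8 lines (adjusted p = 0.484) and NFKBIA one of -0.63 ± 0.29. Neither passed, nor without JVM-13 (-1.07 and -0.93). In Z-138 and Maver-1 both genes hardly moved with AFN700: NFKBIA was at -0.11 and 0.01, and TNFAIP3 at -0.05 and 0.06. CXCL10, a chemokine that both interferon and NF-kB induce, was at 3 with AFN700 and 246.4 with DMSO in REC-1, at 10.2 and 98 in SP49, and at 38.4 and 952.2 in GRANTA-519. Over 8 lines its difference was -1.74 ± 0.62 (adjusted p = 0.552). In those same 3 lines ISG15 had differences of 0.72, -0.38 and 0.18, and IFIT3 of -0.09, -0.17 and -0.22. In each of these 3 lines no interferon-stimulated gene of the 38 was as much lower as CXCL10. They are, however, the lines where CXCL10 itself was lowered most. In HBL-2 CXCL10 had a difference of -0.74, from intensities near the bottom of the scale. There IFI35 (-1.49), BST2 (-1.31) and OASL (-1.07) were lower by more. In JVM-2 the difference of CXCL10 was -1.67. Of the pathway list 0 of 62 passed, 8 had an unadjusted p under 0.05, and STING1 (0.72 ± 0.24), TRIM5 (0.42 ± 0.14) and SOCS3 (0.65 ± 0.25) followed with the smallest p beside CXCL10. IFNAR1 and IFNAR2 had differences of 0.22 ± 0.19 and 0.07 ± 0.11. That of IFNAR1 was 1.38 in JVM-13, and without this line the differences were 0.05 and 0.04.

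**Figure D3:**
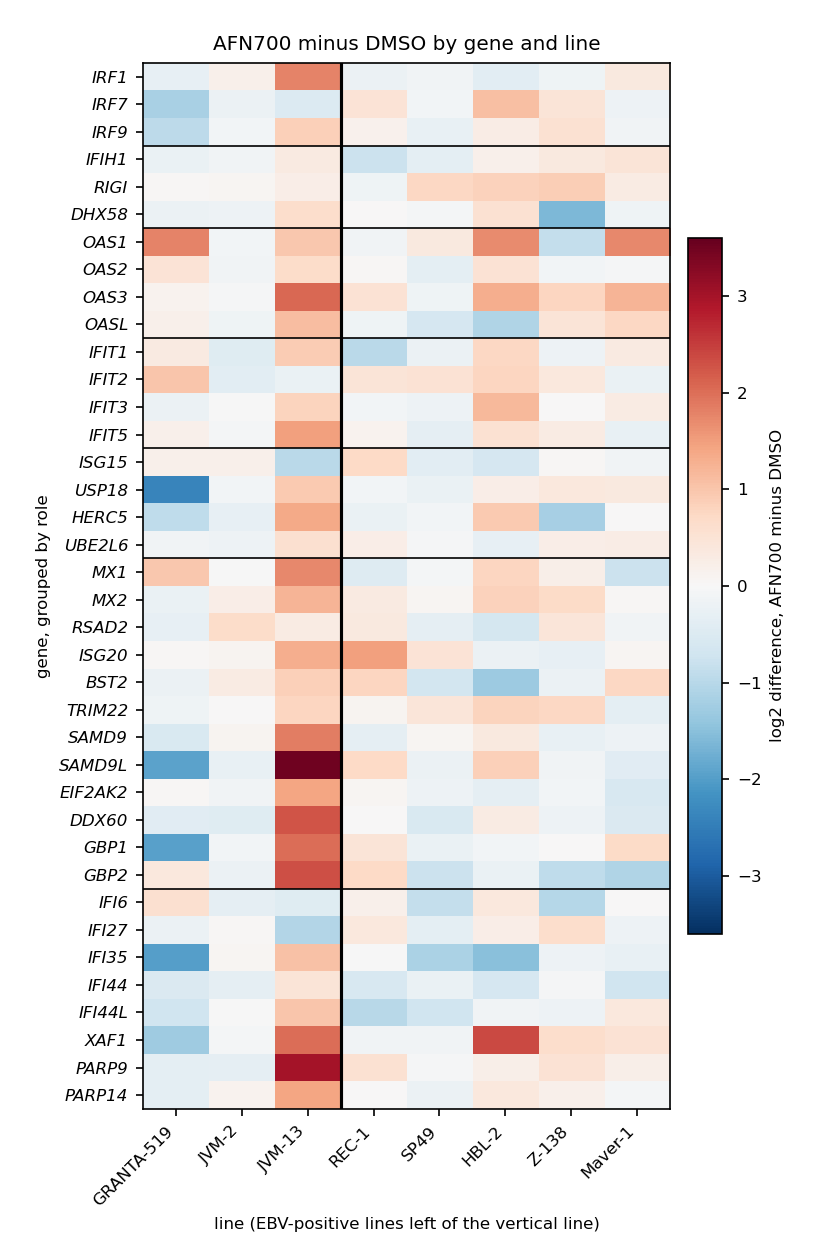
Log2 difference, AFN700 minus DMSO, of the 38 genes (rows, grouped by role) in the 8 lines (columns, EBV-positive lines on the left). Red is higher with AFN700 and blue is lower. JVM-13 is red in most rows, JVM-2 is pale throughout, and GRANTA-519 has dark blue cells at USP18, SAMD9L, GBP1 and IFI35.

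Levels varied more between lines than the AFN700 differences did. The SD of the log2 level over the 8 DMSO arrays had a median of 1.66 over the 38, and the SD of the AFN700 difference over lines one of 0.66, and the first exceeded the second in 34 of 38 (9401 of 12305 genes overall). Over all genes the medians were 0.70 and 0.48. The highest line was the same with AFN700 and with DMSO in 21 of 38 members (6220 of 12305 genes), and the lowest in 26 of 38 (5284 of 12305). For OAS3 and IFIT1 the order of the 8 lines was the same under both.

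In each line 1 AFN700 array was set against 1 DMSO array, so there is no replicate check, and a difference of at least 2-fold is a description of these arrays. In JVM-2, the line with the highest levels, 0 of 38 members were 2-fold higher and 0 lower, where 0.926% and 1.07% of all genes were, and the members' differences had a median of -0.09. IFI44L was at 1327.4 with AFN700 and 1327.6 with DMSO there, OAS3 at 1369.6 and 1416.3, and ISG15 at 1573.2 and 1392.8. In SP49, 0 were higher (2.41% of all genes) and 1 lower (1.32%). The one was IFI35, at 113.7 with AFN700 and 252.3 with DMSO. In SP49 31 of the 38 members were lower and 7 higher, with a median of -0.20, against 0.04 over all genes, of which 55.4% were higher. Centring each array on its median left 5 members higher.

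In GRANTA-519, 1 member was 2-fold higher (2.07% of all genes) and 6 of 38 were lower (6.07%). Those lower were USP18, at 8.5 with AFN700 and 58.4 with DMSO, IFI35, at 17.9 and 80.4, GBP1, at 39.8 and 162.4, SAMD9L, at 89.3 and 345.8, IRF7, at 112.5 and 255.6, and XAF1, at 0.6 and 6.2, near the bottom of the scale. The one higher was OAS1, at 68.9 with AFN700 and 17.5 with DMSO. IFIT2 was just short of 2-fold, at 705.8 and 354.7. Under DMSO, OAS1 and XAF1 were lower in this line than in any other, at levels that may be background. IFIT2, which had its highest DMSO level in this line, was higher with AFN700, while GBP1 was lower.

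In HBL-2, the line whose actin ratio differed most between its 2 arrays, 5 members were higher (9.87% of all genes) and 3 lower (4.46%). The higher ones were XAF1 (log2 difference 2.36), OAS1 (1.69), OAS3 (1.30), IFIT3 (1.16) and IRF7 (1.09), and the lower ones IFI35 (-1.49), BST2 (-1.31) and OASL (-1.07, with intensities of 0.6 with AFN700 and 4.9 with DMSO). In Maver-1, where the actin ratio was high on both arrays, 2 were higher (1.37%) and 1 lower (1.68%): OAS1 at 166.1 with AFN700 and 47.9 with DMSO, OAS3 at 40.7 and 15.4, and GBP2 at 0.3 and 4.3. In Z-138, 0 were higher (1.68%) and 3 lower (1.06%), DHX58, HERC5 and IFI6, each at or below 19.3 on both arrays. In REC-1, 1 was higher (2.54%), ISG20 at 108.8 with AFN700 and 37.2 with DMSO, and 0 were lower (1.02%). OAS1 was thus more than 2-fold higher in GRANTA-519, HBL-2 and Maver-1, while in Z-138 it was at 11.3 with AFN700 and 23.4 with DMSO.

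JVM-13 was the line where most members differed. In it 19 of 38 were at least 2-fold higher with AFN700, where 25.7% of all genes were, and 1 was lower, where 7.01% were. The members' median difference was 0.99, against 0.27 over all genes, and 33 of 38 were higher, as were 61.0% of all genes. SAMD9L was at 691.6 with AFN700 and 57.5 with DMSO, PARP9 at 813.4 and 99.1, GBP2 at 692.7 and 136.8, and GBP1 at 940.2 and 232.5. IFI27, at 31 with AFN700 and 67.9 with DMSO, was the one 2-fold lower, and ISG15 was at 987.9 and 1954.1. This rests on the DMSO array that stands apart, which was the lowest of the 8 DMSO arrays for 5 members. With arrays centred on their median the counts were 10 higher and 2 lower (14.6% and 18.5% of all genes), with a members' median of 0.50, against -0.22 over all genes. The part of that array in these differences was not tested.

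**Figure D4:**
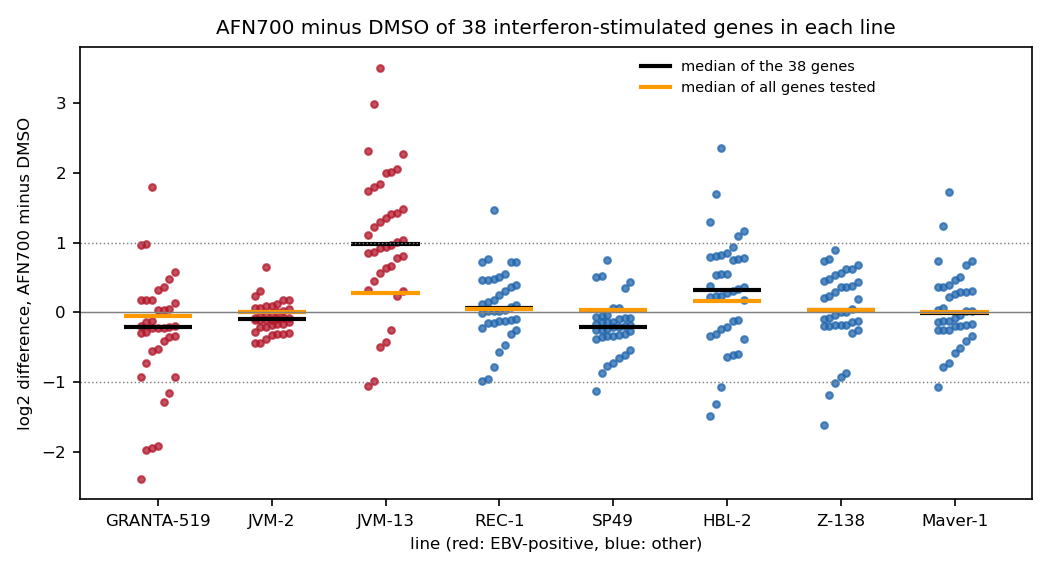
Log2 difference, AFN700 minus DMSO, of each of the 38 genes (points) in the 8 lines, with the median of the 38 (black bar) and of all 12305 genes tested (orange bar). Dotted lines mark 2-fold. The points of JVM-2 lie closest to 0, and in JVM-13 the black bar is at 0.99 and the orange bar at 0.27.

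The response to AFN700 was also compared by EBV status. In the 3 EBV-positive lines as a group 0 of 38 members passed (0% of all genes), and 1 had an unadjusted p under 0.05 (5.14% of all genes). That was MX1, at 21.6 with AFN700 and 9.5 with DMSO in GRANTA-519, at 1081.4 and 1098.8 in JVM-2 and at 1409.5 and 418.7 in JVM-13 (0.89 ± 0.36, adjusted p = 0.773). Without JVM-13 the difference of MX1 was 0.47. The test of the difference in response between EBV-positive and other lines gave 0 of 38 (0%), with 1 unadjusted (3.37% of all genes). That was IRF7, with log2 differences of -1.16, -0.21 and -0.50 in GRANTA-519, JVM-2 and JVM-13, against 0.48, -0.09, 1.09, 0.47 and -0.19 in REC-1, SP49, HBL-2, Z-138 and Maver-1. Its difference in response was -0.98 ± 0.36 (adjusted p = 0.914), and SP49 and Maver-1 were only just above the EBV-positive lines. GBP2 (1.28 ± 0.59) and MX1 (0.96 ± 0.45) followed, both also with an adjusted p of 0.914, and without JVM-13 these were 0.53 and 0.54. The members' median was 0.28, against 0.02 over all genes, and without JVM-13 it was -0.17. In the pathway list, MAVS, the adaptor of RIGI and IFIH1, had the smallest p (0.96 ± 0.36, adjusted p = 0.914), and without JVM-13 its difference was 0.52.

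For the difference in response between sensitive and insensitive lines 0 of 38 passed (0%), with 1 unadjusted (1.48% of all genes). IFIH1 had log2 differences of -0.78 in REC-1 and -0.34 in SP49, against -0.23 to 0.46 in the insensitive lines, a difference in response of -0.72 ± 0.31 (95% interval -1.41 to -0.04, adjusted p = 0.9997). The intensities of IFIH1 were 119.7 with AFN700 and 208.2 with DMSO in REC-1, and 179.2 and 228.1 in SP49. IFI44L followed at -0.91 ± 0.46 and IFIT1 at -0.86 ± 0.45. The difference was negative in 29 members and positive in 9, with a median of -0.15, against -0.03 over all genes. Without JVM-13 the members' median was -0.00.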

How the data were processed

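The submitters' processing notes name MAS5 (version not given in the sources used here) for the linear intensities that the authors deposited, and each array has the same mean (150) after 2% is trimmed from each end. The 54675 probe sets got their genes from the platform table, and RefSeq updated the symbols. The pseudocount of 3.3 is the 25th percentile of all values. Genes that exceeded the 60th percentile of all probe sets of an array, on 2 arrays or more, were tested (12305). Tests used limma 3.58.1 in R 4.3.3 (lmFit, eBayes with a trend), tested on simulated data, with Benjamini-Hochberg over all genes and a threshold of 0.05. For the DMSO comparisons the simulated data held no spread between lines, so they say little about the tests by EBV status or sensitivity under DMSO. DMSO comparisons used the 8 DMSO arrays (6 residual degrees of freedom). AFN700 comparisons used all 16 with the line as a fixed block, since both arrays of a line come from that line by the labels (7 degrees of freedom over 8 lines, 6 by group). The ± after a log2 difference is its SE. P-values reflect how the lines spread, each on a single array per condition. The number of arrays limits the precision.

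The members, the list of 71 pathway genes, its NF-kB and marker companions and the tests were chosen with earlier results of these data known. All members are given by value, range or count. In each comparison those past the threshold are described in full, and otherwise the largest differences in a role. From the pathway list the text names genes past the threshold, otherwise those of smallest p, and a few fixed ones. GBP3 and the remaining pathway genes are counted only. Alternatives were other pseudocounts, quantile normalization, centring, filters, probe set choices, no trend and no block. Others left out each line or both JVM-13 and HBL-2, or kept only insensitive lines or only lines not known to carry EBV. The ISRE and kB letters were each shortened by 1 base after a longer form had been searched. The shorter forms matched in a larger share of both the members' promoters and all promoters, and the longer forms are not reported here.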

Additional observations from a re-analysis of the deposited data

Results flagged for a closer look

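Among 8 arrays, or 8 differences, a value was picked out where its gap to the nearest other exceeded 0.526 of the whole range (Dixon's criterion). Of 114 such groups of the 38 genes 13 held one, where chance gives about 1 in 20, or 5.7, and 7 of the 13 were in JVM-13. With AFN700, IRF7 was at 112.5 in GRANTA-519, against 265.9 to 457.1 in the other lines, and IFIT5 at 194.3 in REC-1, against 490.2 to 739.3. With DMSO, ISG20 was at 37.2 in REC-1, against 215.1 to 852.6, TRIM22 at 366.8 in Z-138, against 1012.7 to 2221.9, and SAMD9 at 128.5 in JVM-13, against 317.6 to 507.6.

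Of the log2 differences, AFN700 minus DMSO, 6 stood out in JVM-13: PARP9 at 3.00 (others at most 0.56), DDX60 at 2.27 (at most 0.30), SAMD9 at 1.85 (at most 0.34), IRF1 at 1.79 (at most 0.36), EIF2AK2 at 1.43 (at most 0.08) and PARP14 at 1.41 (at most 0.37). These share the DMSO array of JVM-13, whose part in them was not tested. USP18 stood out in GRANTA-519 at -2.39, against -0.25 to 0.93 elsewhere, and DHX58 in Z-138 at -1.61, against -0.21 to 0.64, with intensities of 4.1 with AFN700 and 19.3 with DMSO.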

How the results depend on the processing

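Between EBV-positive and other lines under DMSO, 2 members passed instead of 1, GBP2 joining GBP1, with a pseudocount of 16, quantile normalization, no filter on low values, probe sets ending in _at preferred, or no trend, and 0 passed without JVM-13 and HBL-2. The differences of GBP1 and GBP2 are both against values that may be background. With 1 line left out at a time the count was 1 to 2, and GBP1 passed each time, with a log2 difference of 4.62 to 5.00. In the other 5 comparisons 0 members passed under every alternative run, leaving out 1 line included, and no difference of a gene followed through these alternatives changed sign. Only members with an unadjusted p under 0.05 in limma were followed. Keeping its sign did not make a difference stable: that of RIGI by EBV status was 2.36 with the probe set used and 0.01 with its probe set ending in _at. The members' medians did change sign. Between sensitive and insensitive lines under DMSO the median of -0.03 was positive under 7 of 19 alternatives (range -1.09 to 1.12). The median over 8 lines with AFN700 (0.07) was negative under 3 of 19, with the lowest at -0.05, that in EBV-positive lines (0.22) under 2 of 19, at -0.07, and that of the response by EBV status (0.28) under 2 of 20, with the lowest at -0.17. Of these 7 alternatives with AFN700 all left out JVM-13 but 1, which centred the arrays. Without the replicate block, 0 members passed in all 4 AFN700 comparisons, as with it. The number of all genes called between EBV-positive and other lines was 103, and with 1 line left out it was 373 without GRANTA-519, 67 without Z-138, 55 without HBL-2, 41 without JVM-2, 35 without JVM-13 and 33 without Maver-1. Without JVM-13 and HBL-2 it was 12. AFN700 over 8 lines gave 0 genes, but 10 without JVM-13 and 37 without both. Counts of members at 2-fold within a line moved by over 1.5 times in 20 cases and did not in 76. In JVM-13 the higher count was 10 with centred arrays, against 19 as deposited. With 1 array per line and condition and no detection calls, differences of genes near the bottom of the scale, as in REC-1 and Z-138, are the least certain.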
